A study of Komagataella phaffii with 18 samples.

Results

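The comparison set heterothallic α-type Komagataella phaffii against wild type after 24 h in acetate medium. It rested on 6 of the series' 18 libraries, the 3 labelled AM-alpha and the 3 labelled AM-wt, chosen by strain and medium alone. All cells had the CBS2612 background. The α-type genotype is given as dic1-2Δ(alpha), the a-type genotype as dic1-2Δ(a), and the third strain as wild type; the labels do not say what the dic1-2Δ allele removes, or how many clones were used. Polyadenylated RNA was sequenced from α-type, a-type and wild-type cultures, first growing exponentially in YPD, a rich medium, and then 24 h after the same cultures were moved to acetate, with 3 libraries in each of the 6 groups. The labels give the purpose of the acetate step as the induction of mating genes.

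K. phaffii is a methylotrophic yeast with an a and an α mating type. Wild-type cells can switch between them by inverting a stretch of chromosome 4, so that a wild-type culture can come to hold both types, whereas a heterothallic strain keeps one. In yeasts, cells of opposite type exchange peptide pheromones, which act through G-protein-coupled receptors and a kinase cascade and prepare the cells for fusion, and in K. phaffii mating and sporulation are induced by poor media. The IDs in the files are not paired with gene names, and 0 of the 5341 IDs matched the reference gene table, which is for another strain, GS115 (assembly ASM2700v1). The mating-type genes, the pheromone genes and the deleted allele were therefore not checked against the strain labels, and the features are described by ID, level, coding length and numbering.

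The α-type libraries held 686910, 765524 and 687187 estimated counts and the wild-type libraries 733016, 710355 and 637339, the deposited depth. The labels do not say that replicates of a group are separate cultures. The p-values cover only the variation among the deposited libraries, part or all of which may be technical. The spread was small, with a biological coefficient of variation of 11.4% in α-type and 13.1% in wild type in acetate. Along the main principal component of the 9 acetate libraries, which held 57.5% of the variance, the α-type libraries lay between 14.2 and 16.9, the a-type libraries between 20.8 and 25.8, and the wild-type libraries at -32.9, -45.4 and -40.1. Wild-type replicate 1 thus lay nearest to the single-type strains.

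In acetate, α-type cells differed from wild type at many features, and the larger differences were mostly features with less RNA in α-type. Of 4700 features tested, 1257 (26.7%) passed an adjusted p of 0.05 (edgeR quasi-likelihood test with Benjamini-Hochberg adjustment), of which 526 (11.2% of those tested) were higher and 731 (15.6%) lower in α-type. The 3 α-type values lay wholly above the 3 wild-type values at 887 features (18.9%) and wholly below at 972 (20.7%). The called features that were higher made up 41.8% of the calls with TMM scaling. With upper-quartile scaling this share was 66.1% (997 higher and 512 lower), where the median over all tested features was a log2 fold change of 0.29, against 0.07 with TMM. Which direction held more features therefore depended on the scaling. These are bulk cultures, so fewer cells of a kind and less RNA per cell cannot be told apart.

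The 2 directions differed in size. Among the 731 features lower in α-type, 342 (46.8%) were at least 2-fold lower and 120 (16.4%) at least 4-fold lower, and 33 were 16-fold lower or more. Among the 526 higher features, 191 (36.3%) were at least 2-fold higher, 10 (1.90%) at least 4-fold higher, and 2 at least 16-fold higher. The median log2 fold change was -0.95 in the lower set and 0.88 in the higher set. Tested against a fold change of 2 rather than against no change (edgeR's TREAT), 190 features (4.04%) were lower in α-type and 17 (0.362%) were higher. This imbalance held with upper-quartile scaling, where 149 were lower and 32 higher beyond 2-fold.

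**Figure D1:**
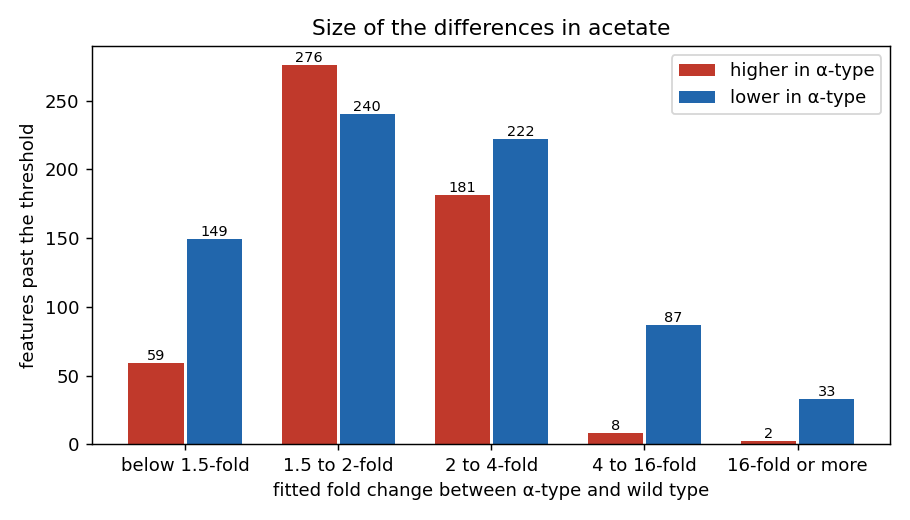
Number of features past an adjusted p of 0.05 in acetate (y axis) in 5 classes of fitted fold change between α-type and wild type (x axis), with bars for features higher and lower in α-type. From 4-fold upward the lower features outnumber the higher ones, 120 against 10.

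Lower calls were more frequent at high levels. By mean deposited TPM (a level corrected for length) over the 9 acetate libraries, the tested features were cut into 4 equal classes, and 30.6% of the highest class were lower in α-type, against 4.68% of the lowest class. These levels include the wild-type libraries in which the lower features are high by the choice of the set. By mean deposited TPM over the 9 YPD libraries, an axis added after the data were seen, 22% of the highest class and 11.7% of the lowest were lower in α-type, a smaller contrast, and the share lower beyond 2-fold was 3.91% and 5.28%. By the acetate level, the share that was higher in α-type did not follow the level in this way, with 9.19%, 11.1%, 14.4% and 10% from the lowest class to the highest. The median feature of the lowest class by acetate level had 105 counts over the 6 compared libraries and that of the highest 1538, so the power to call a difference moved with the level, and its part in this pattern was not tested.

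**Figure D2:**
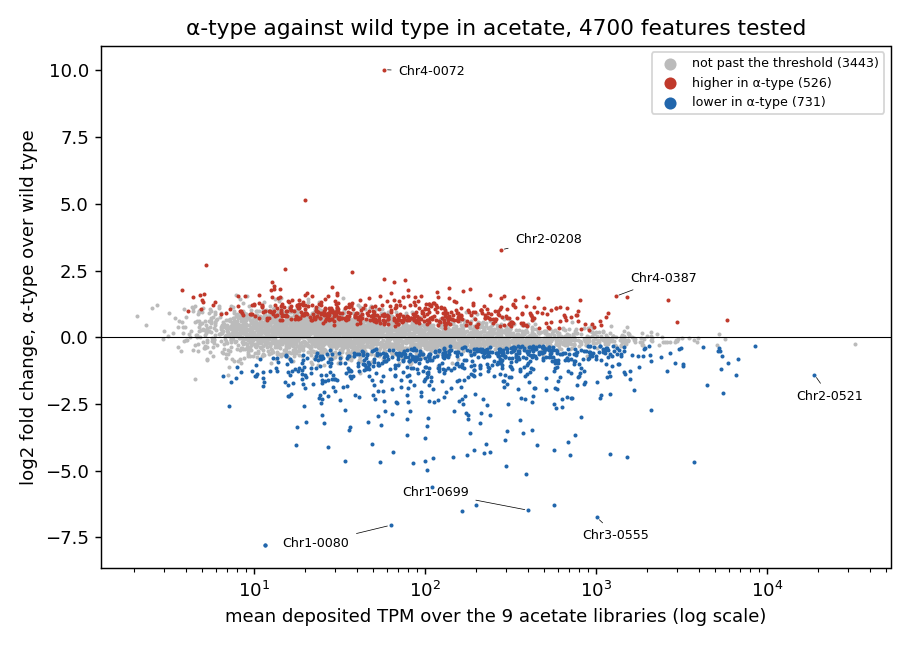
Log2 fold change of α-type over wild type (y axis) against the mean deposited TPM over the 9 acetate libraries (x axis, log scale) for the 4700 features tested, coloured by the 526 calls higher and 731 calls lower in α-type. Of the calls at least 4-fold from 0, 120 are lower and 10 higher, though the point furthest from 0, Chr4-0072, is a higher call.

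The lower features held a large part of the wild-type RNA pool. Together they took 27.3 ± 0.326% of the library's counts in α-type and 46.4 ± 1.47% in wild type in acetate (SD, n = 3 each). The higher features took 14.4 ± 0.0762% in α-type and 6.62 ± 0.701% in wild type. These shares are a description, since the sets were called on the same libraries. In YPD, which played no part in the choice, the lower set took 24.0 ± 0.747% in α-type and 23.1 ± 0.512% in wild type, and the higher set 12.6 ± 1.35% in α-type and 12.9 ± 1.13% in wild type. The α-type share of the lower set in acetate thus lay near the YPD shares of both strains, while the wild-type share stood apart.

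For the 190 features lower beyond 2-fold, the share was 4.73 ± 0.183% in α-type and 17.6 ± 0.868% in wild type in acetate, against 4.44 ± 0.528% and 4.41 ± 0.242% for the same strains in YPD. Their summed level was 45037, 44933 and 42645 CPM in the α-type libraries and 186644, 227596 and 210202 CPM in the wild-type libraries. CPM here are counts scaled to the TMM-adjusted library size. The wild-type libraries were not equal: replicate 2 was the highest wild-type library at 131 of the 190 features, replicate 3 at 42 and replicate 1 at 17. The a-type libraries, at 33452 to 36518 CPM, were below the α-type libraries, and neither single-type strain overlapped with wild type. The 190 features were chosen as lower in these α-type libraries than in these wild-type libraries, so that gap follows from the choice. For a-type, the choice on the same wild-type libraries fixes it in part.

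**Figure D3:**
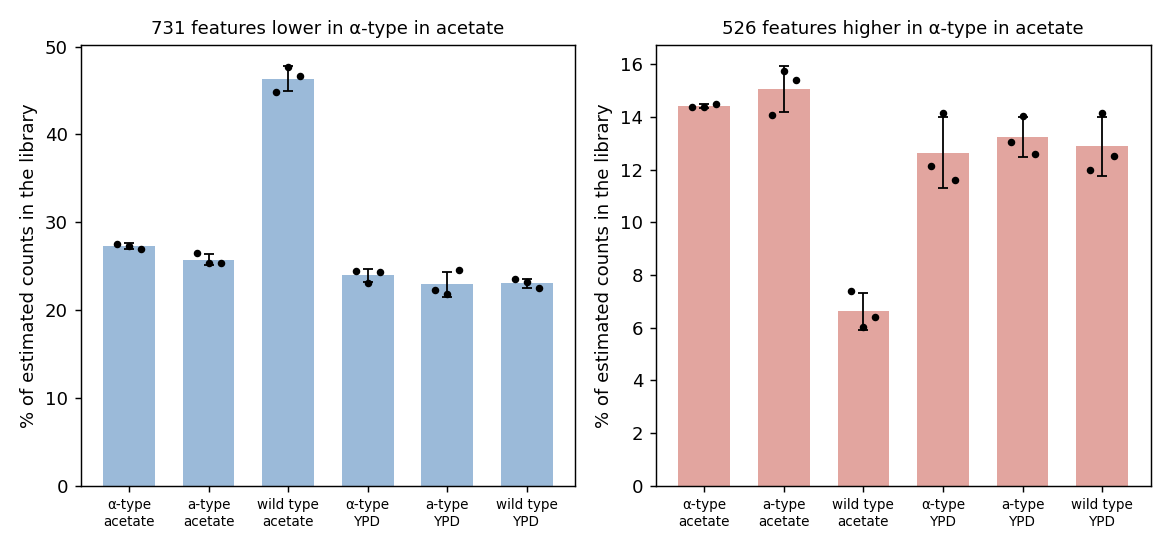
Percent of each library's estimated counts (y axis) held by the 731 features lower and the 526 features higher in α-type in acetate, for the 6 groups (x axis); points are libraries, bars are group means and error bars SD (n = 3). Wild type in acetate stands apart at 46.4% for the lower set and 6.62% for the higher set.

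The change was spread over many features. Summed over the lower set, the mean level was 254878 CPM in α-type and 548091 CPM in wild type, and 64 features (8.76% of the set) made up 50% of the difference. Summed over the higher set it was 134683 CPM in α-type and 77883 CPM in wild type, and 50 features (9.51%) made up 50% of the difference. The 10 features with the largest differences held 17.3% of it in the lower set and 22.3% in the higher set.

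Most of the features described below with values were chosen after their values were seen. The exceptions, picked by a rule of size, are PP7435_Chr4-0072 and PP7435_Chr2-0208 among those that were higher in acetate, PP7435_Chr4-0001 and PP7435_Chr1-0080 among those that were lower, and the features named for YPD and for the difference between media.

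Some features were near the detection limit in α-type and abundant in wild type. PP7435_Chr1-0080 (coding length 1185 bases) had 1.39, 1.19 and 4.08 CPM in the α-type libraries and 323, 315 and 293 CPM in the wild-type libraries. Its log2 fold change was -7.04 (SE 0.36, 95% interval -7.75 to -6.32, edgeR adjusted p = 2.86e-26). The a-type mean was 0.909 ± 1.58 CPM (SD, n = 3), so the feature was close to 0 in both single-type strains. It was low in YPD too, at 0 counts in α-type and 3.94 ± 3.60 CPM in wild type.

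PP7435_Chr3-0555 (1185 bases) had the smallest adjusted p of the comparison and was an abundant transcript in wild type. It had 50, 48.9 and 38.1 CPM in the α-type libraries, 53.4, 61.4 and 37.7 CPM in the a-type libraries, and 4237, 5647 and 4891 CPM in the wild-type libraries. The log2 fold change of α-type over wild type was -6.74 (SE 0.16, edgeR adjusted p = 1.44e-43). In YPD the order was lost, with 1391, 1602 and 822 CPM in α-type against 996, 1210.1 and 929 CPM in wild type, and no call (log2 fold change 0.28, adjusted p = 0.999). The same feature therefore moved in opposite directions in acetate relative to YPD, by -4.65 in α-type (adjusted p = 5.84e-11) and by 2.35 in wild type (adjusted p = 1.65e-07, both edgeR).

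PP7435_Chr1-0699 (1611 bases) had the same shape, with 30.6, 29.8 and 38.1 CPM in α-type and 2429, 3429 and 2968 CPM in wild type in acetate (a log2 difference of -6.48, SE 0.17, edgeR adjusted p = 1.76e-41). In YPD its means were 491 ± 37.7 CPM in α-type and 633 ± 164 CPM in wild type. PP7435_Chr2-0942 (1173 bases) had 289, 321 and 302 CPM in α-type and 6039, 7524 and 6873 CPM in wild type in acetate, with 163 ± 20.6 CPM in a-type. All of these features kept the 2 groups of libraries well apart, and the spread within a group was small beside the gap. They were chosen with their values in these libraries known, so this separation is a description.

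PP7435_Chr4-0067 (597 bases) differed in that both strains had more of it in acetate than in YPD. It had 169.6, 325 and 139 CPM in α-type and 5051, 6198 and 5112 CPM in wild type in acetate. In YPD it averaged 91.4 ± 35.0 CPM in α-type and 76.3 ± 8.33 CPM in wild type. The log2 change from YPD to acetate was 1.35 in α-type (adjusted p = 0.000619) and 6.26 in wild type (adjusted p = 2.50e-13, both edgeR).

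Other lower features were strongly expressed in α-type, only less than in wild type. PP7435_Chr2-0521 (474 bases) had the largest absolute fall in mean CPM. It had 4582, 4882 and 4460.5 CPM in the α-type libraries, 91.4, 57.3 and 69.8 CPM in the a-type libraries, and 11132, 13101 and 12465 CPM in the wild-type libraries. Its log2 fold change was -1.40 for α-type over wild type (SE 0.10, edgeR adjusted p = 1.00e-18) and -7.39 for a-type over wild type, 2 values that share the wild-type libraries. In YPD it was far lower than in acetate in both of these strains, at 83.0 ± 23.6 CPM in α-type and 100.2 ± 47.6 CPM in wild type (SD, n = 3 each).

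PP7435_Chr3-0319 (639 bases) had a like order, with 1640.3, 1621 and 1691 CPM in α-type, a mean of 116 ± 16.2 CPM in a-type, and 5261, 5873 and 6046 CPM in wild type. Its log2 fold change was -1.79 (SE 0.11, edgeR adjusted p = 6.92e-23). PP7435_Chr4-1037 (537 bases) had the opposite order of single-type strains, with 0 counts in all 3 α-type libraries, 124, 143 and 163 CPM in a-type, and 19.8, 5.21 and 24.3 CPM in wild type. With the α-type group set to a limit of 3 counts in total, it was at least 12.6-fold lower in α-type than in wild type, where it had 29 counts in all. Its lowest wild-type value, 5.21 CPM, equals the floor of 3 counts in that library. With the 6 compared libraries alone it did not pass the low-count filter, so it was tested only through its high a-type level. Its difference between α-type and wild type is therefore a description. At the first 2 of these features a-type was the lowest strain and wild type the highest, and at PP7435_Chr4-1037 α-type was the lowest and a-type the highest, with no overlap between strains.

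Features higher in α-type had smaller differences. PP7435_Chr2-0208 (312 bases) had 59.8, 47.7 and 61.3 CPM in the α-type libraries and 9.15, 5.21 and 1.87 CPM in the wild-type libraries (a log2 difference of 3.27, SE 0.42, 95% interval 2.44 to 4.11, edgeR adjusted p = 1.49e-09). It was more abundant in YPD, with 192, 161 and 206 CPM in α-type and 187, 111 and 139 CPM in wild type, where the groups overlapped. It fell in acetate in both strains, with a log2 change of -1.59 in α-type and -4.53 in wild type, and the difference between these responses was 2.94 (SE 0.51, edgeR adjusted p = 0.000547).

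The largest gains in mean level came from features that were already abundant in wild type in acetate. PP7435_Chr1-0319 (2226 bases) had 10473, 8842 and 9314 CPM in α-type and 5906, 6939.9 and 6262 CPM in wild type (a log2 difference of 0.58, SE 0.09, edgeR adjusted p = 7.94e-07). This call was lost when all 18 libraries were fitted together (adjusted p = 0.379). PP7435_Chr4-0387 (1800 bases) had 3819, 3274 and 3849 CPM in α-type and 1297, 1298 and 1184 CPM in wild type (a log2 difference of 1.53, SE 0.11, edgeR adjusted p = 1.28e-19). PP7435_Chr4-0738 (738 bases) had 2238, 1627 and 2322 CPM in α-type and 789.7, 827 and 749 CPM in wild type (log2 fold change 1.39). All 3 had a-type means close to the α-type means, at 10158 ± 351, 3709 ± 288 and 2048 ± 64.6 CPM (SD, n = 3).

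**Figure D4:**
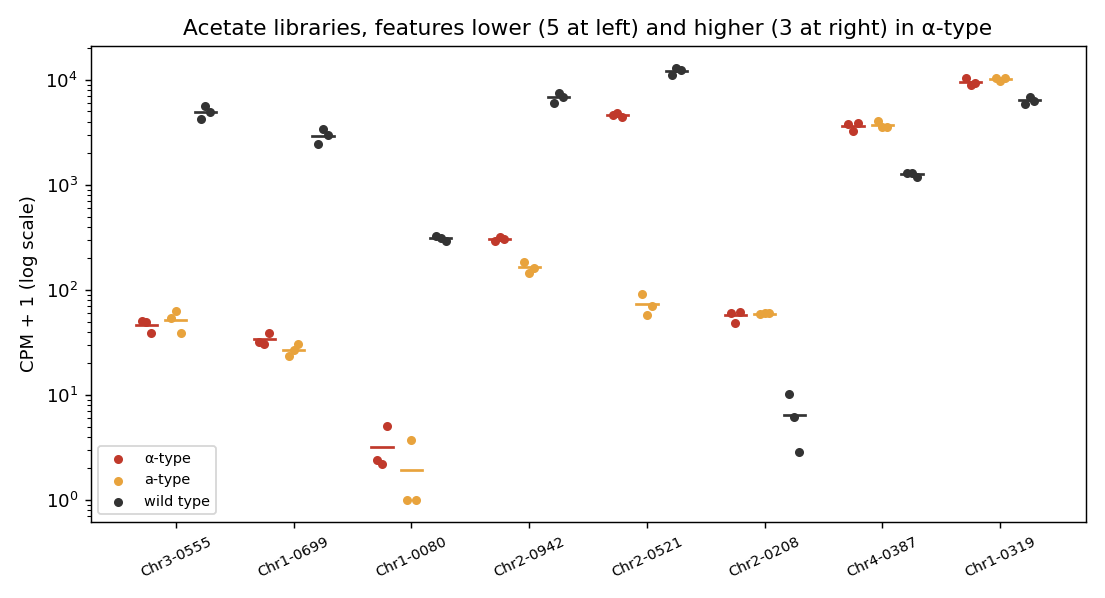
CPM plus 1 (y axis, log scale) of 8 features in the 9 acetate libraries; points are libraries and short lines group means, with α-type at the left, a-type in the middle and wild type at the right of each feature. At Chr2-0521, the α-type libraries lie between 4460.5 and 4882 CPM while the a-type libraries lie between 57.3 and 91.4 CPM. At all 8 features the α-type and a-type libraries lie on the same side of wild type.

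Near the start of the chromosome 4 numbering, features could not be told apart by their reads. PP7435_Chr4-0001 and PP7435_Chr4-0074 (918 bases) had equal counts in every library, as had 2 further pairs of mirrored numbers. Both had 0 counts in the α-type and a-type libraries, against 36.6, 41.7 and 39.2 CPM in the wild-type libraries in acetate, at least 30.1-fold lower in α-type when its group is set to 3 counts in total. Only 69 counts over the wild-type group stand behind this difference for each of the 2 IDs, and the pair was not summed. Both IDs were tested, so the pair entered the lower calls as 2 features. With features of equal counts tested once, the count of calls was 1257 as well.

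PP7435_Chr4-0072 (3135 bases) had 300.3, 141 and 127 CPM in the α-type libraries, 581, 450.1 and 483 CPM in the a-type libraries, and 0 counts in the wild-type libraries, at least 112-fold higher in α-type. PP7435_Chr4-0003 (3138 bases), its mirrored partner by number, had 0, 111 and 119.8 CPM in α-type, 0 counts in a-type, and 229, 294 and 267 CPM in wild type (log2 fold change -1.75, edgeR adjusted p = 9.96e-06). Within α-type, replicate 1 had all of its counts in one member and replicates 2 and 3 split theirs. Summed over both, the level was 267 ± 29.3 CPM in α-type and 262 ± 32.6 CPM in wild type (SD, n = 3 each), with a log2 fold change of 0.03 (95% interval -0.28 to 0.33, adjusted p = 0.917). The direction of each member alone is therefore uncertain, and a difference in their sum was not detected.

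In YPD a single feature was called between the same strains. Of 3646 features tested, 1 (0.0274%) passed the threshold, and 117 had an unadjusted p under 0.05 (edgeR), while DESeq2 called 2. The YPD libraries were shallower, with 234044 to 309362 estimated counts, and more variable, with a biological coefficient of variation of 30.9% in α-type and 33.6% in wild type. The median 95% interval of a log2 fold change reached 0.517 to either side in acetate and 0.928 in YPD, so smaller differences were detectable in acetate.

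The called feature, PP7435_Chr4-1169 (1191 bases), was lower in α-type in both media. It had 77.8, 81.0 and 76.2 CPM in α-type and 1023, 1151 and 1184 CPM in wild type in acetate (a log2 difference of -3.83, SE 0.16, edgeR adjusted p = 3.47e-31). In YPD it had 50.4, 80.7 and 46.3 CPM in α-type and 817, 575 and 881 CPM in wild type (a log2 difference of -3.68, SE 0.42, edgeR adjusted p = 0.00112). Tested in the separate fit of all 18 libraries, the log2 fold change in acetate minus that in YPD was -0.11 (SE 0.45, edgeR adjusted p = 0.943). The a-type mean in acetate was 182 ± 31.0 CPM. In YPD the a-type libraries had 774, 307 and 434 CPM, a mean of 505 ± 241 CPM. These lay above every α-type library in YPD and overlapped with wild type.

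In YPD, the features called in acetate lay about as evenly on both sides of 0 as all features did. Of the 731 lower features, 603 could be tested in YPD, where 1 was called, 262 (43.4%) were below 0 and the median log2 fold change was 0.07. Of the 526 higher features, 439 could be tested, where edgeR called 0, and at an unadjusted p under 0.05 there were 5 above and 3 below 0. Of these 439, 239 were above 0 and the median was 0.04. Among all 3571 features tested in both media, 1698 (47.5%) were below 0 and the median was 0.02. At an unadjusted p under 0.05 (edgeR), 63 of these 3571 were above and 50 below 0, and in the lower set 13 were above and 12 below. For the 129 tested features of the set lower beyond 2-fold, 70 (54.3%) were below 0 and 89.9% were within 2-fold in YPD. The share within 2-fold in YPD was 95.7% over all features tested in both media, so this set had the smaller share.

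**Figure D5:**
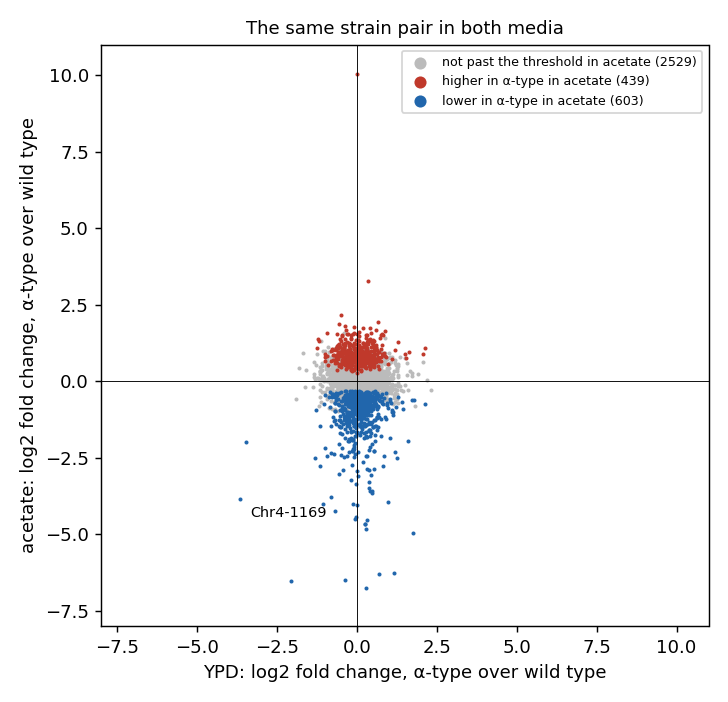
Log2 fold change of α-type over wild type in acetate (y axis) against the same quantity in YPD (x axis) for features tested in both media, coloured by the call in acetate. The lower calls stretch far down the acetate axis but lie mostly around 0 on the YPD axis, where their median is 0.07; Chr4-1169, at -3.68, is the call in YPD.

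The difference between media was tested directly, as the acetate response of α-type minus that of wild type, over all 18 libraries. This fit did not pair the YPD and acetate libraries, although the samples came from the same cultures. Same-numbered libraries of a strain in the 2 media had correlations of -0.0634 to 0.0275 in α-type and wild type. Of 4783 features, 199 (4.16%) passed the threshold (edgeR, adjusted p of 0.05), 36 (0.753%) with a positive and 163 (3.41%) with a negative difference. With upper-quartile scaling 68 were positive and 119 negative, and with DESeq2 66 and 240. Of the 729 tested features that were lower in α-type in acetate, 160 were called and all of these were negative. Of the 521 tested features that were higher, 35 were called and all of these were positive. The acetate libraries enter both tests, so the directions are not independent of the sets.

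The acetate response of each strain, from the fit of all 18 libraries, was set beside the calls. For features lower in α-type in acetate, the median log2 change from YPD to acetate was 0.27 in α-type and 1.48 in wild type, and for the set lower beyond 2-fold it was 0.45 in α-type and 2.82 in wild type. For features higher in α-type it was 0.44 in α-type and -0.48 in wild type. Over all tested features it was 0.10 in α-type and 0.09 in wild type. Acetate samples were taken 24 h after the YPD samples, so medium and time cannot be told apart.

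Over all 4783 features of this fit, 22.3% rose and 19.6% fell in α-type, and 25.6% rose and 23.3% fell in wild type (edgeR, adjusted p of 0.05). The sets were called on the acetate libraries that also enter these responses, so the counts in the sets are a description. By calls, 172 of the 190 features lower beyond 2-fold rose in wild type in acetate. Of these, 68 also rose in α-type, 87 were not called in α-type and 17 fell there. Of the full lower set, 239 rose in both strains, 250 rose in wild type and were not called in α-type, and 18 fell in α-type while they rose in wild type. Of the higher set, 104 fell in wild type and were not called in α-type, 89 fell in both, 78 rose in both, and 3 rose in α-type while they fell in wild type. Among all 4700 features of the acetate comparison, 778 rose in both strains, 658 fell in both, 428 rose and 343 fell in wild type without a call in α-type.

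The a-type strain, read in the same fit against the same wild-type libraries, is set beside α-type here. The median log2 fold change over the lower set was -0.95 for α-type over wild type and -0.98 for a-type over wild type, over the higher set 0.88 and 0.87, and over all tested features 0.07 and 0.08. Beyond 2-fold the lower set had -2.27 for α-type and -2.56 for a-type. Since both comparisons use the same 3 wild-type libraries, no likeness of the strains is read from these values. The a-type mean was below the wild-type mean at 723 of the 731 lower features, 0 of the 526 higher features and 2080 of all 4700, counts that the choice of the sets on the same wild-type libraries partly fixes.

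By deposited TPM, the median level of the lower set was 119 in α-type, 121 in a-type and 232 in wild type in acetate, and 73.8, 76.0 and 66.4 in the same strains in YPD. The median of the higher set was 74.9 in α-type, 77.3 in a-type and 30.4 in wild type in acetate, and 42.8, 47.1 and 37.6 in YPD. Over all tested features the acetate medians were 53.1, 54.8 and 41.2. In the lower set wild type in acetate had the highest median of the 6 groups, and in the higher set α-type and a-type in acetate had the highest medians and wild type in acetate the lowest. The order of α-type and wild type in acetate follows from the choice of the sets on these libraries, so it is a description.

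Called features were found on every nuclear chromosome. Lower features made up 16.4%, 14.1%, 15.1% and 16.8% of those tested on chromosomes 1, 2, 3 and 4, and higher features 11.8%, 11.2%, 11.3% and 10.1%. Higher features were less frequent among short coding sequences, at 7.06% of the shortest of 4 equal length classes and 14.6% of the longest, while lower features made up 14.6% and 15.5% of these classes. Median counts were 209 in the shortest and 318 in the longest class, and their part in this was not tested.

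Numbering gave some structure. Among the first 50 IDs of each chromosome, 43 of 182 tested features (23.6%) were lower in α-type and 8 (4.40%) higher, against 15.2% and 11.6% over the bulk of the IDs. Among the last 50 IDs of each chromosome, 25 of 159 (15.7%) were lower and 14 (8.81%) higher, so the share of lower features was like that of the bulk. The median acetate TPM was 83.7 for the first IDs, 87.8 for the last IDs and 50 for the bulk. The part of level in these shares was not tested. The last 50 IDs all belong to a second series of IDs, described below, and the first 50 to the consecutive one. The 2 windows are therefore not the 2 ends of a single series. Within the first 50 IDs, the share lower in α-type was 25%, 24.4%, 19.1% and 26.0% on chromosomes 1, 2, 3 and 4. The next consecutive ID was also lower after 131 of 549 lower features (23.9%), against 15.7% over all 3649 pairs, and it was also higher after 60 of 421 higher features (14.3%), against 11.5%. The longest run of lower features held 5 IDs, from PP7435_Chr1-0786 to PP7435_Chr1-0790, and the longest run of higher ones held 4, from PP7435_Chr1-0307 to PP7435_Chr1-0310. The files do not state that ID order is genome order.

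A second series of IDs, numbered in steps of 11 beyond the consecutive ones, held 381 tested features with a median coding length of 846 bases, against 1293 bases for the consecutive ones. Of these, 19.9% were lower and 7.09% higher in α-type, and 6.56% were lower beyond 2-fold. Among the 4316 consecutive IDs the shares were 15.2%, 11.6% and 3.82%. The 2 series also differed in level, with a median acetate TPM of 104 in the second series and 49.1 in the consecutive one. The part of level in these shares was not tested.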

How the data were processed

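Polyadenylated RNA libraries were counted by the authors with kallisto, which gave an estimated count and a TPM value per feature, per the file headers. The deposited estimated counts are not whole where reads match several transcripts, and were rounded. The deposited TPM values were used only to describe levels. Besides kallisto, the tools listed without roles in the submitters' processing notes are DESeq2, SAMtools, Trim Galore 0.4.2, FastQC 0.11.2 and TopHat2. For the genome build, the sources used here give no name. Lengths were multiples of 3 for 99.9% of the 5341 features and are called coding lengths. A series table named for this comparison holds other groups in its columns and was not used.

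Counts were tested with edgeR 4.0.16 in R 4.3.3 (filterByExpr, TMM, quasi-likelihood, Benjamini-Hochberg adjustment over all features tested, threshold 0.05). The acetate comparison was fitted on the 9 acetate libraries with 1 mean per group, the YPD comparison on the 9 YPD libraries, and the responses and their difference on all 18. The fit on all 18 did not pair the YPD and acetate libraries of a culture. CPM were scaled separately in each medium. Floors are 3 counts over a group and cover counting error only. Replicate pairs within the compared acetate groups differed by more than sampling noise (chi-square per degree of freedom 2.05 to 3.64), so none was merged. Methods were tested on simulated data.

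Features were named by rule: past the threshold, at least 10 CPM in the higher group, replicates that do not overlap (for the difference between media, in acetate), then the 2 largest changes in each direction per comparison. Other features are said to be chosen after their values were seen. All members, rules and groupings were chosen with earlier results of these data known. Alternatives were other scalings, no filter, other sets of libraries, DESeq2 1.42.0, limma 3.58.1 (voom), a replicate block, leaving out each replicate, and, added after the data were seen, summing the mirrored pair.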

Additional observations from a re-analysis of the deposited data

Results flagged for a closer look

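The difference in acetate response between α-type and wild type, tested as an interaction with edgeR, was itself past the threshold at 199 features, which is why it is given here. The features named by rule had positive differences of 9.59 log2 units at PP7435_Chr4-0072 and 3.94 at PP7435_Chr2-0063, and negative ones of -8.97 at PP7435_Chr1-1164 and -7.40 at PP7435_Chr4-0221.

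PP7435_Chr4-0221 (594 bases) had 13.9, 11.9 and 6.81 CPM in α-type and 727, 994 and 846 CPM in wild type in acetate, and 58.2 ± 19.0 CPM in α-type and 26.1 ± 4.34 CPM in wild type in YPD. It was lower in acetate than in YPD in α-type and higher in wild type, and its interaction stayed past the threshold in every alternative run (-7.67 to -7.17, adjusted p up to 4.43e-07).

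PP7435_Chr1-1164 (534 bases) had 5.56, 26.2 and 5.44 CPM in α-type and 383, 514 and 489 CPM in wild type in acetate. In YPD it had 3 counts in α-type and 0 in wild type, so the size of -8.97 is no bound, and without YPD α-type replicate 3 the adjusted p was 0.247, without YPD α-type replicate 2 0.0709, and without acetate wild-type replicate 2 or 3 0.0538 or 0.0512. PP7435_Chr2-0063 (429 bases) had 23.6, 20.3 and 39.5 CPM in α-type and 13.7, 8.69 and 11.2 CPM in wild type in acetate (log2 fold change 1.28, edgeR adjusted p = 0.0211). Its YPD wild-type libraries had 24.6, 17.8 and 153 CPM, and without the third the interaction was 2.39 (edgeR adjusted p = 0.11); with voom it was 3.00 (limma adjusted p = 0.0778).

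For PP7435_Chr4-0072, the sum with its mirrored partner gave an interaction of 0.00 (edgeR adjusted p = 0.999), so 9.59 concerns the split of counts between the members.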

How the results depend on the processing

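The acetate count of 1257 ranged over single libraries left out between 976 (wild-type replicate 2) and 1371 (wild-type replicate 1), and 496 (124 higher, 372 lower) with all 18 libraries in the fit. The share of calls that were higher, 41.8%, was 66.1% with upper-quartile scaling, 38.6% without the low-count filter, 45.7% with the 6 libraries alone, 25% with all 18, 35.3% with DESeq2, and 36.5% to 43.4% with a replicate left out. The count beyond 2-fold, 207 in all, was 143 with all 18 libraries and 182 to 217 with a replicate left out. The α-type minus wild-type share of library counts in the lower set was -19.1 percentage points, -12.9 for the set lower beyond 2-fold, and -19.9 to -18.4 with a replicate left out. The YPD count of 1 was 2 with DESeq2 and 2 with all 18 libraries, and 1 with each replicate left out. The interaction count of 199 was 306 with DESeq2, 185 with the spread of each medium estimated on its own (voom), and 136 (without acetate wild-type replicate 2) to 245 with a replicate left out.

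The log2 fold change of PP7435_Chr4-0003 was -1.75 alone and 0.027 when summed with its partner. PP7435_Chr2-0063 lost its acetate call with all 18 libraries and without α-type replicate 3 (0.96, adjusted p = 0.177) or wild-type replicate 2 or 3, and PP7435_Chr4-0003 lost it with DESeq2 and with all 18 libraries. The causes were not tested.

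Same-numbered α-type and wild-type libraries in acetate did not deviate together (correlations -0.0662, -0.0263 and 0.00412), so the numbers were not taken as pairs. With a replicate block 1143 features passed in acetate, 201 beyond 2-fold, 1 in YPD and 188 for the interaction. At this depth a count of 0 in a library allows 3.58 to 4.17 CPM in α-type and 4.57 to 5.6 CPM in wild type in acetate.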
